A study of Mus musculus with 35 samples.

Results

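Bone morphogenetic proteins (BMPs) and the extracellular proteins that bind them were followed as 10 genes in RNA of whole mouse lung. The 10 members were the ligand genes Bmp2, Bmp3, Bmp4, Bmp5, Bmp6 and Gdf2 (which encodes BMP9) and the antagonist or modulator genes Chrdl1, Grem1, Nog and Bmper. They were taken by gene symbol from the 54532 genes of the deposited tables, and all 10 were found there. RNA was sequenced from 34 adult mice in 12 groups, formed by genotype, sex and 6 weeks at room air (normoxia) or in 10% oxygen made with nitrogen (hypoxia). Control mice were wildtype B6/129SJ2, Cav1-KO mice carried Cav1(tm1Mls/)J and lacked caveolin-1 in every cell, and Cav1-RC mice had the same knockout background with caveolin-1 put back in endothelial cells alone. The promoter that drives caveolin-1 in Cav1-RC mice is not given in the sources used here. 10 groups held 3 mice each, while the normoxic females of Cav1-KO and of Cav1-RC numbered 2 per genotype. 1 further library, whose sex, genotype and oxygen level the labels mark as uncertain, was kept out of every comparison.

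BMP ligands are secreted dimers that bind type I and type II serine/threonine kinase receptors, which phosphorylate SMAD1, SMAD5 and SMAD9. These SMADs enter the nucleus with SMAD4 and switch on genes such as Id1 and Id3. In the lung the pathway is best known for its type II receptor BMPR2, whose loss of function is a cause of heritable pulmonary arterial hypertension. Antagonists such as noggin and gremlin 1 bind ligands outside the cell and keep them from the receptors.

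Promoter sequences are printed below for Bmp5 and Bmp6, which have 9 of the 15 pairwise calls, and for Bmp4, which shares a motif with Bmp6 and was called in no comparison. 6 of the 10 members had an entry in the RefSeq promoter table of GRCm38.p6, the assembly that mm10 names. The 250 bases before each start site were searched on both strands for CACGTG (the E-box), for ACGTG (the core of the hypoxia response element, which every CACGTG also holds) and for GGCGCC (a BMP response element). CACGTG stood in 6.02% of the 32851 promoters, ACGTG in 16.6% and GGCGCC in 9.59%. Among the 6 members, Bmp4 and Bmp6 held CACGTG, 188 and 127 bases before the start, and Grem1 held GGCGCC 78 bases before it. The Bmp5 window held none of these motifs, and neither did those of Gdf2 and Bmper. The sequences are printed 5′ to 3′ on the strand of the gene, with CACGTG in capitals.
Bmp4, chr14:46390670-46390919, minus strand: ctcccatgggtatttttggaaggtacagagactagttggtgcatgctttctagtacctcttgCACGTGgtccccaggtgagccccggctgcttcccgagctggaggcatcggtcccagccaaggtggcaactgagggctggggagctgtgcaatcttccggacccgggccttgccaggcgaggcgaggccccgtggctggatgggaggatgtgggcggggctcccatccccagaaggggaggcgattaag
Bmp5, chr9:75775115-75775364, plus strand: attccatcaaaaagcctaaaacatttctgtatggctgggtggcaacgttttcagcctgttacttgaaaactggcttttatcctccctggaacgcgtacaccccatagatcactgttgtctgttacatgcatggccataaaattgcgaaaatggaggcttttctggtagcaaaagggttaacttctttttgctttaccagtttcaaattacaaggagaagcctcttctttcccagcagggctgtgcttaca
Bmp6, chr13:38345577-38345606, plus strand: ttcagggcagcgCACGTGtgcagactgcga
For Bmp6 only 30 bases around the match are shown, since this window, those 30 bases included, lies in an exon that GENCODE gives to Bmp6. A match is a description of the letters and not evidence of a bound site.

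The libraries held 12425535 to 33343006 counts, with a median of 18015172.5. Levels are given in CPM, a gene's counts scaled to library size, with library sizes adjusted by TMM in edgeR. The floor, which a count of 0 still allows, was set at 3 counts per library and covers counting error only. Before the TMM adjustment that is 0.0900 CPM in the deepest and 0.241 CPM in the shallowest library. As the check of the genotypes, Cav1 stood at 988.6 to 1356 CPM in the 12 Control libraries and at 1.61 to 3.997 CPM in the Cav1-KO libraries. It stood at 1.48 to 6.56 CPM in the libraries labelled Cav1-RC, so the reads of the mouse Cav1 gene checked the deletion and did not show the re-expression. The endothelial markers Pecam1 (561.9 to 1304 CPM) and Cdh5 (393.8 to 1231 CPM) and the alveolar markers Ager and Sftpc were present in every library. 4 libraries were flagged against the labelled sex, by Xist above 100 CPM in males or Y chromosome genes above 5% of the male mean in females. These were replicates 1 and 2 of male Cav1-RC normoxia, replicate 2 of male Control hypoxia and replicate 2 of female Cav1-KO hypoxia. The flagged males had Xist at 752 to 874.2 CPM. The flagged female had Xist at 714.2 CPM, between the 634.8 and 744.6 of her group. Her Y genes were at 6.94% of the male mean, so Y genes alone flagged her. Groups follow the labels, and a result is also given without these libraries where that ended its call.

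A second trait of the libraries cuts across the groups. 12 of the 34 mice appear by animal number in the list of animals of the study's western blots, and 22 do not. All 3 mice of male Control hypoxia, female Cav1-KO hypoxia and male Cav1-KO hypoxia are on that list, as is 1 mouse in each of 3 female groups (Control at both oxygen levels and Cav1-RC in normoxia). What being listed stands for is not given in the sources used here. In 6 of the 18 pairwise comparisons one group was wholly listed and the other wholly unlisted, so list status and condition cannot be told apart there. These were hypoxia against normoxia in Cav1-KO mice of each sex and in Control males, the contrast of Cav1-RC with Cav1-KO among hypoxic mice of each sex, and Cav1-RC against Control in hypoxic males.

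Between genes, levels were compared only in FPKM, which also divides by gene length. Bmp6 and Bmp4 were the most abundant members, with medians over the 34 libraries of 40.2 FPKM (range 16.4 to 76.0) and 38.6 FPKM (21.8 to 56.3). Bmp3 (8.63 FPKM, 5.58 to 15.25) and Bmp5 (8.40 FPKM, 1.09 to 13.2) followed, then Bmper (4.31 FPKM, 2.60 to 9.23), Bmp2 (2.89 FPKM, 1.66 to 5.83) and Chrdl1 (2.49 FPKM, 0.824 to 7.40). Grem1 (0.341 FPKM, 0.123 to 0.972), Nog (0.237 FPKM, 0.0322 to 1.005) and Gdf2 (0.0279 FPKM, 0 to 0.445) were low. In this order the ranges of neighbouring genes overlapped except between Bmp4 and Bmp3. The order differed between groups. Bmp6 lay above Bmp4 in male Cav1-KO normoxia (73.75 ± 3.56 against 41.3 ± 2.47 FPKM, SD, n = 3) and below it in male Control hypoxia (20.5 ± 1.12 against 40.96 ± 2.46 FPKM, SD, n = 3). Bmp3 lay below Bmp5 in male Cav1-KO normoxia (8.46 ± 0.295 against 12.4 ± 0.857 FPKM) and above it in the hypoxic males of that genotype (6.29 ± 0.636 against 1.96 ± 0.756 FPKM).

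**Figure D1:**
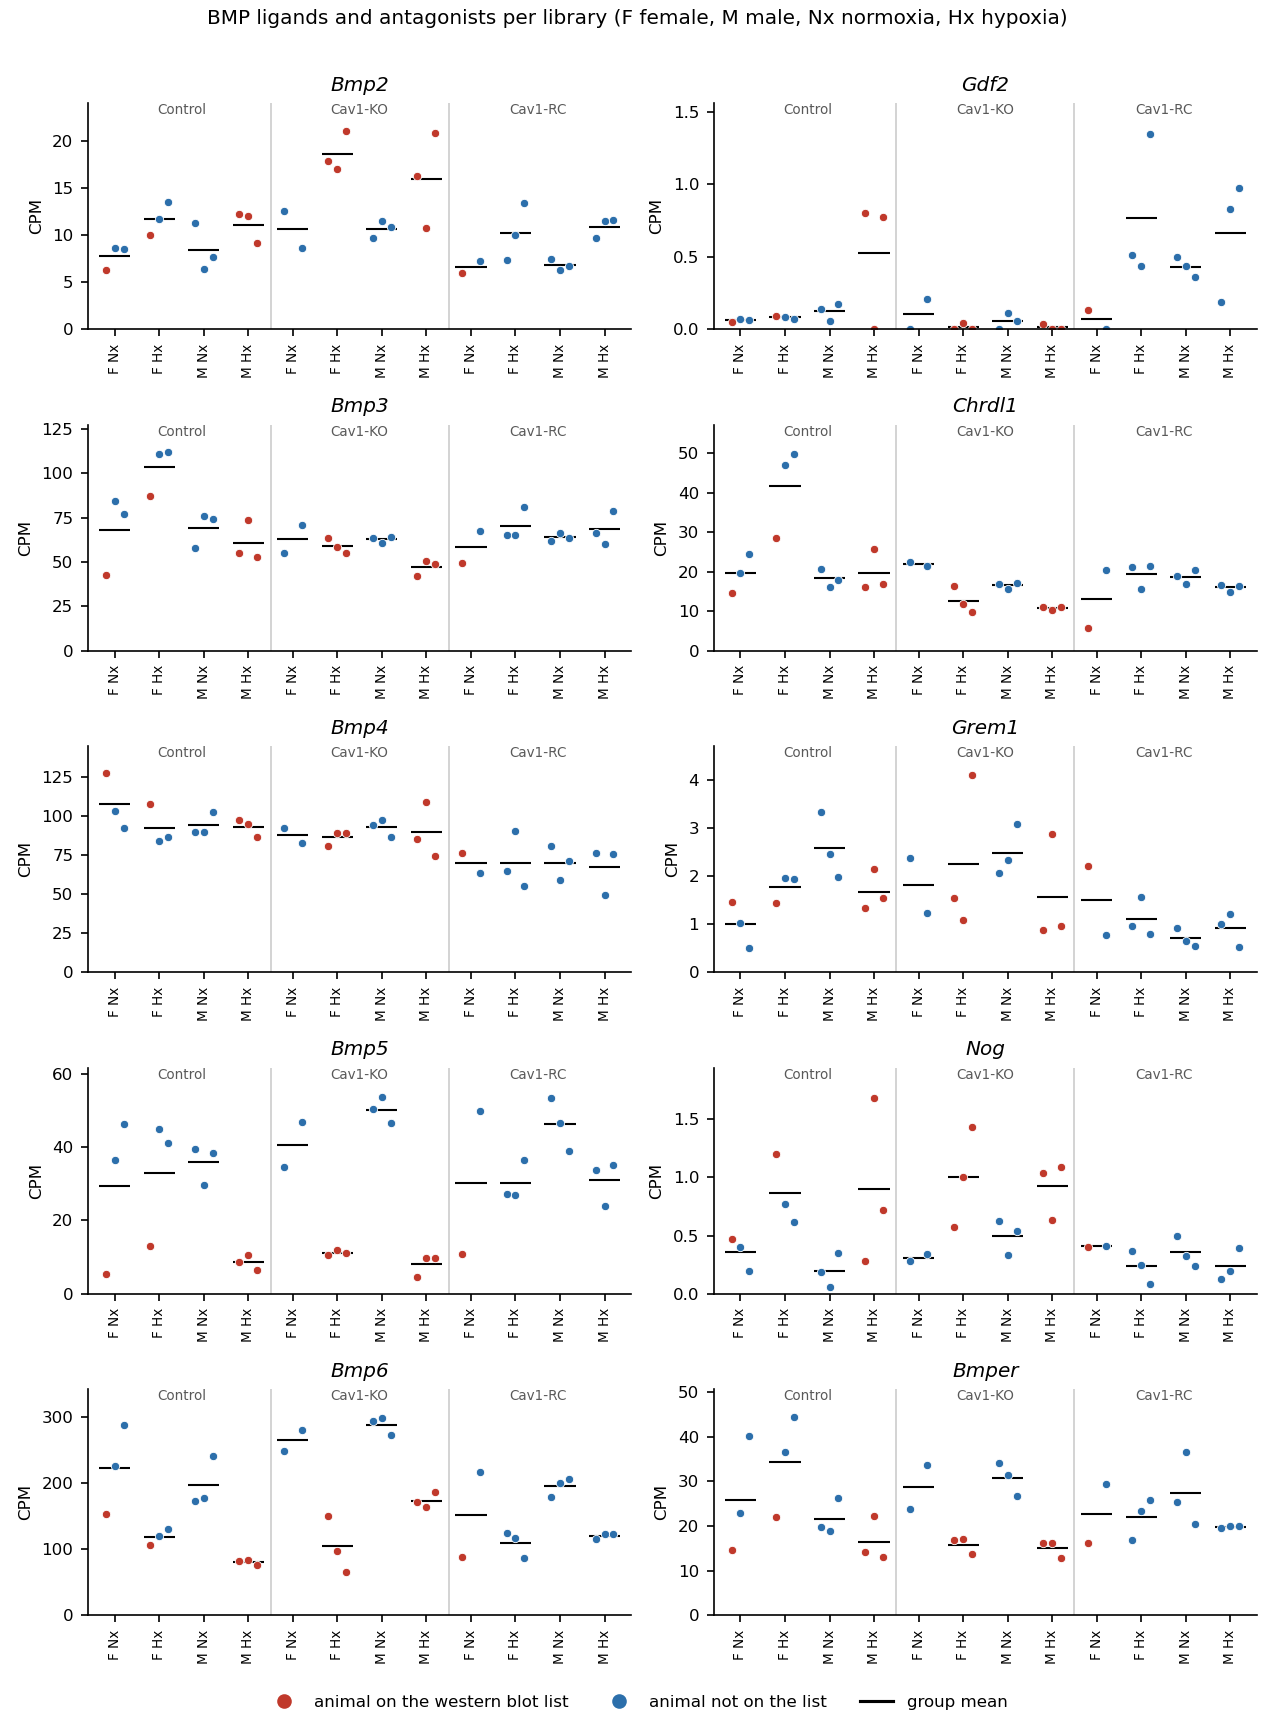
CPM of the 10 members (1 panel each, linear axis) in every library of the 12 groups, with listed and unlisted libraries marked apart. Bmp5 splits into 12 listed libraries at 4.50 to 12.96 CPM and 22 unlisted libraries at 23.8 to 53.6 CPM.

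Pairwise comparisons used edgeR's quasi-likelihood test on the counts of the groups compared. A call needed a log2 fold change beyond 1 in either direction and a p, adjusted by Benjamini-Hochberg over all genes tested, under 0.05. Mice are separate animals in the labels, and the p-values measure the spread between these 2 or 3 mice per group. Of 153 tests of a member in 18 comparisons, 15 were called. Gdf2 passed the filter on low counts in 1 comparison and Nog in 8, and the other 8 members were tested in all 18.

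Genotype comparisons called few of the members, and in normoxia Grem1 alone. In Cav1-KO against Control, no member of 8 was called in normoxic females, where 0.122% of all genes tested were called, and none of 8 in normoxic males, where 5% were. In hypoxia 1 of 9 was called in females (0.768% of all genes) and 1 of 9 in males (0.929%). For Cav1-RC against Cav1-KO, none of 8 was called in normoxic females (0.1% of all genes), 1 of 8 in normoxic males (3.59%), 2 of 9 in females kept in hypoxia (8.98%) and 2 of 9 in hypoxic males (14.8%). For Cav1-RC against Control, the counts were 0 of 8 in normoxic females (0.137%), 1 of 8 in normoxic males (2.45%), 0 of 9 in females kept in hypoxia (0.832%) and 1 of 9 in hypoxic males (9.90%).

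For hypoxia against normoxia, no member was called in female Control (9 tested, 0.0175% of all genes called), female Cav1-RC (8 tested, 0.0285%) or male Cav1-RC mice (8 tested, 2.27%). 2 members were called in male Control (8 tested, 6.36% of all genes), 2 in female Cav1-KO (9 tested, 13.3%) and 2 in male Cav1-KO mice (9 tested, 17.7%). In the 8 comparisons in which edgeR called no member, between 0 and 4 members had an unadjusted p under 0.05. Over all genes, 733 to 5067 of the 16981 to 17566 tested in these comparisons had such a p. In the same 8, the Wald test of DESeq2 called members in 1, where Cav1-RC against Control in hypoxic females had Gdf2 higher and Chrdl1 lower, and limma on log2 FPKM called none.

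1 fit over all 34 libraries gave the mean of the female and male log2 fold changes, called here both sexes together. It tested all 10 members. For Cav1-KO against Control it called 0 in normoxia (5.70% of all genes) and 2 in hypoxia (5.36%). For Cav1-RC against Cav1-KO it called 0 in normoxia (3.26%) and 3 in hypoxia (15.3%), and for Cav1-RC against Control 0 in normoxia (2.72%) and 2 in hypoxia (5.20%). For hypoxia against normoxia it called 2 in Control (2.33%), 3 in the knockout (16.5%) and 0 in Cav1-RC mice (1.23%). Where this fit called 0 members, 2, 4, 1 and 3 had an unadjusted p under 0.05 for Cav1-KO against Control, Cav1-RC against Cav1-KO and Cav1-RC against Control in normoxia and for hypoxia in Cav1-RC mice. In the same order, 6143, 3431, 3195 and 2971 of the 19870 genes tested had such a p.

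**Figure D2:**
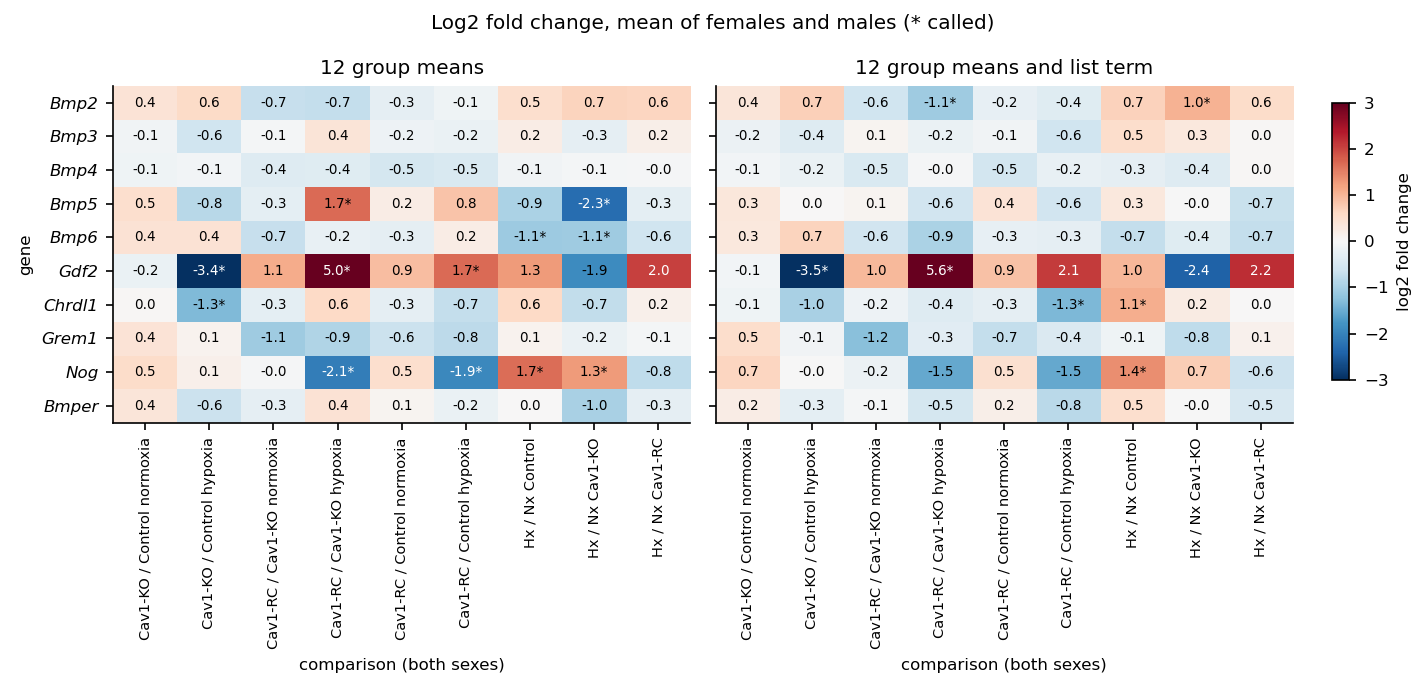
Log2 fold change of the 10 members (rows) in the 9 comparisons of both sexes together (columns), without (left) and with (right) a term for the western blot list, with the colour scale ending at 3 in each direction and called values starred. On the left Gdf2 reads -3.35 for Cav1-KO against Control and 5.05 for Cav1-RC against Cav1-KO in hypoxia, and no member is starred in the 3 genotype comparisons of normoxia in either panel.

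Bmp6, a ligand of lung and liver that is also known to induce hepcidin, was lower in hypoxia than in normoxia without overlap in 5 of the 6 groups of 1 genotype and sex. The gene (ENSMUSG00000039004) lies in mm10 on the plus strand of chromosome 13 from 38345107 to 38500302. Its CPM in normoxia was 152.7, 225.9 and 287.8 in Control females and 173.2, 177.7 and 241.1 in Control males. In hypoxia it was 105.7, 119.8 and 129.8 in Control females and 82.2, 83.5 and 76.5 in Control males. All 6 hypoxic Control libraries were below all 6 normoxic ones. Bmp6 fell by 1.28 on the log2 scale in Control males (SE 0.148, adjusted p = 0.0050, edgeR). In Control females the difference was -0.95 (SE 0.261, adjusted p = 0.72), and both sexes together gave -1.09 (SE 0.178, adjusted p = 0.00030). The latter was not called without female Control normoxia replicate 3, and with the list term described under Bmp5 it was -0.70 (SE 0.168, adjusted p = 0.0055).

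In Cav1-KO and Cav1-RC mice Bmp6 was likewise lower in hypoxia on average, with an overlap in Cav1-RC females. In Cav1-KO normoxia Bmp6 had 249.0 and 280.2 CPM in females and 293.3, 299.1 and 273.4 in males. In Cav1-KO hypoxia it had 149.9, 97.3 and 65.0 CPM in females and 170.7, 163.1 and 186.0 in males, again with no overlap. It fell by 1.38 in Cav1-KO females (SE 0.292, adjusted p = 0.011), a call lost without either normoxic library, and the male difference of -0.76 (SE 0.0862, adjusted p = 0.00018) did not reach the fold threshold. Both sexes together gave -1.07 (SE 0.186, adjusted p = 9.6e-05), which was not called without female Cav1-KO hypoxia replicate 3 and was -0.35 with the list term (SE 0.229, adjusted p = 0.50). The pairwise calls were not kept with the list term either, at -0.55 in Control males (adjusted p = 0.26) and -0.66 in Cav1-KO females (adjusted p = 0.33). In Cav1-RC males, 178.6, 200.6 and 206.3 CPM in normoxia stood against 116.0, 123.5 and 122.2 in hypoxia, a log2 difference of -0.68 (SE 0.0832, adjusted p = 0.0041) that is also under the fold threshold. In Cav1-RC females, 88.5 and 216.1 CPM in normoxia stood against 124.9, 117.0 and 87.1 in hypoxia, a difference of -0.49 (SE 0.368, adjusted p = 0.94). The 88.5 came from the listed mouse.

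Bmp6 was also higher in hypoxic Cav1-KO males than in hypoxic Control males. All 3 of the former, at 163.1 to 186.0 CPM, were above all 3 of the latter, at 76.5 to 83.5. The log2 fold change was 1.08 (SE 0.1002, adjusted p = 0.0043), the call was kept in all 6 fits without 1 library, and all 6 mice are on the western blot list. In females the corresponding difference was -0.20 (SE 0.284, adjusted p = 0.64). The difference between the sexes, female minus male, was -1.28 (SE 0.353) with an unadjusted p of 0.0012 and an adjusted p of 0.12, so it was not called. In that female comparison 1 of 3 Control mice is listed, and with the list term the female value was 0.27 (SE 0.224, adjusted p = 0.53) and the sex difference -0.81 (SE 0.297, adjusted p = 0.38). Among hypoxic males Bmp6 was lower in Cav1-RC than in Cav1-KO by less than the fold threshold, at -0.53 (SE 0.0971, adjusted p = 0.0028), and -1.24 with the list term (SE 0.267, adjusted p = 0.0096). In normoxic males Bmp6 was 0.56 higher in Cav1-KO than in Control (SE 0.135, adjusted p = 0.036) and 0.57 lower in Cav1-RC than in Cav1-KO, a log2 difference of -0.57 (SE 0.0743, adjusted p = 0.00078), both under the fold threshold. The end of Bmp6 overlaps the opposite-strand gene Txndc5, and reads of the 2 genes cannot be told apart there if strand was not used in counting.

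Bmp5, a ligand expressed in lung mesenchyme, had low values in 12 libraries and high values in 22, with none between. It (ENSMUSG00000032179) lies on the plus strand of chromosome 9 from 75775364 to 75900310. In normoxia it had 5.29, 36.4 and 46.4 CPM in Control females, 39.5, 29.8 and 38.4 in Control males, 34.5 and 46.8 in Cav1-KO females and 50.3, 53.6 and 46.6 in Cav1-KO males. In hypoxia it had 12.96, 45.0 and 41.0 CPM in Control females, 8.58, 10.42 and 6.56 in Control males, 10.5, 11.9 and 10.96 in Cav1-KO females and 4.50, 9.68 and 9.82 in Cav1-KO males. In the Cav1-RC groups it had 10.7 and 49.9 CPM in normoxic females, 53.4, 46.5 and 39.0 in normoxic males, then 27.1, 26.9 and 36.6 in females in hypoxia and 33.9, 23.8 and 35.0 in hypoxic males. The low values were those of hypoxic Control males and hypoxic Cav1-KO mice of both sexes, and of 1 mouse in each of the 3 mixed female groups. These 12 libraries are the 12 listed ones.

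By the pairwise tests, Bmp5 fell in hypoxia by 2.07 on the log2 scale in Control males (SE 0.198, adjusted p = 0.0033), by 1.89 in Cav1-KO females (SE 0.156, adjusted p = 0.00066) and by 2.69 in Cav1-KO males (SE 0.255, adjusted p = 8.9e-05, edgeR). Among hypoxic mice it was higher in Cav1-RC than in Cav1-KO, by 1.44 in females (SE 0.170, adjusted p = 0.0028) and 1.95 in males (SE 0.290, adjusted p = 0.0011), and higher in Cav1-RC than in Control males by 1.86 (SE 0.212, adjusted p = 0.00080). Both sexes together gave -2.28 for hypoxia in Cav1-KO mice (SE 0.384, adjusted p = 7.0e-05) and 1.69 for Cav1-RC against Cav1-KO in hypoxia (SE 0.367, adjusted p = 0.00067). The 6 pairwise calls were kept in every fit without 1 library, and they are the 6 comparisons in which list status and condition cannot be told apart. The other 12 comparisons allow libraries of 1 list status on both sides, and edgeR's pairwise test called Bmp5 in none of them. Among these, Cav1-KO against Control in hypoxic females gave -1.58 (SE 0.436, adjusted p = 0.094), which was called by the Wald test of DESeq2, without the low-count filter and in the fit over 34 libraries, and was 0.12 with the list term (SE 0.275, adjusted p = 0.84). Within the 3 groups that hold both kinds of mouse, the listed mouse had 0.128 times the CPM of the unlisted ones in female Control normoxia, 0.301 times in female Control hypoxia and 0.214 times in female Cav1-RC normoxia.

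**Figure D3:**
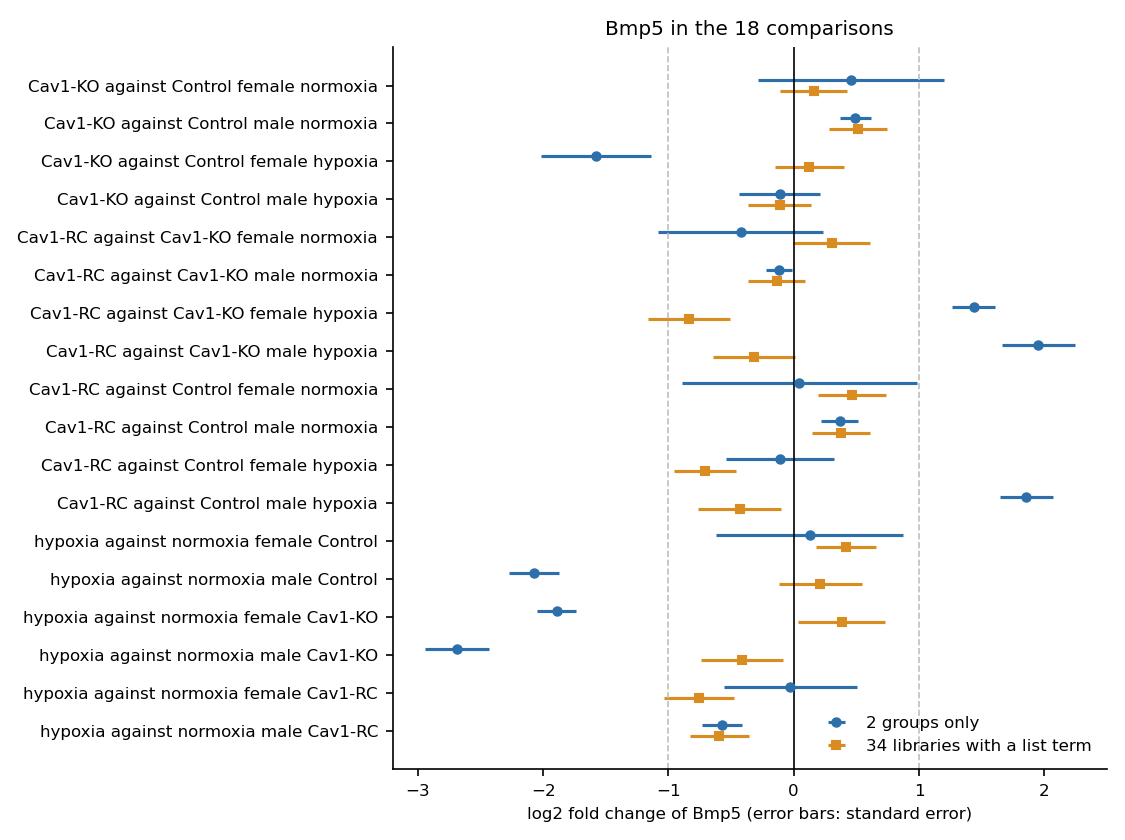
Log2 fold change of Bmp5 with its standard error in the 18 pairwise comparisons, from the pairwise fit and from the fit over 34 libraries with a term for the western blot list. The 6 called values lie at -2.69 to -1.89 and at 1.44 to 1.95, and no value is called with the list term.

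In a fit over the 34 libraries with a term for the list, that term was -2.27 for Bmp5 (SE 0.236, adjusted p = 5.5e-07), the difference of listed minus unlisted mice of the same group on the log2 scale. Bmp5 was the only member of 10 that the term called, and 13.5% of all genes were called by it. The term rests on the 3 groups with mice of both kinds. With it, the difference in Bmp5 between hypoxia and normoxia was 0.21 in Control males (adjusted p = 0.76) and 0.38 in Cav1-KO females (adjusted p = 0.73), which turned the sign, and -0.41 in Cav1-KO males (adjusted p = 0.67). In both sexes of Cav1-RC mice together it was -0.67 (SE 0.183, adjusted p = 0.028), beside -0.30 without the term (SE 0.372, adjusted p = 0.78). The difference between Cav1-RC and Cav1-KO in hypoxia was -0.83 in females (adjusted p = 0.15) and -0.32 in males (adjusted p = 0.66). The term passed the adjusted p without the fold threshold for Chrdl1 (-0.97, SE 0.182), Bmper (-0.96, SE 0.207), Bmp6 (-0.71, SE 0.180) and Bmp3 (-0.59, SE 0.132), and its adjusted p was 0.066 or more for the other 5.

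Marker genes of other cells also differed by the list, to be read against the 13.5% of all genes that the term called. Of 8 airway epithelium markers the list term called 4 higher and 0 lower, and their summed level was 35670 to 78160 CPM in listed and 15120 to 50280 CPM in unlisted libraries, with none of the defining markers Scgb1a1 and Scgb3a2 at 0. Of 10 cardiac muscle markers it called 9 lower, with 176.4 to 854.5 CPM in listed and 718 to 1812 CPM in unlisted libraries, and Myh6 at 33.8 or more in all. Of 11 fibroblast markers it called 2 lower, with 1266 to 2621 CPM against 1965 to 4371 CPM, and of 14 endothelial markers 1 lower and 1 higher, with 4159 to 6417 CPM against 4499 to 6679 CPM. Of 9 alveolar type 2 markers 3 were lower, and of 7 neuroendocrine markers 3 were higher. The part of these cells in the member values was not tested. In whole lung, fewer cells of a type and less RNA per cell cannot be told apart.

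The other ligands differed less, with Gdf2 as the exception. Bmp2 (chromosome 2, 133552159 to 133562885, plus strand), which is made by endothelial and other lung cells, had 16.9 to 21.0 CPM in hypoxic Cav1-KO females and 10.8 to 20.8 in hypoxic Cav1-KO males. It had 9.10 to 13.5 CPM in the 6 hypoxic Control libraries and 7.28 to 13.4 in the 6 hypoxic Cav1-RC libraries. Only the female Cav1-KO group stood clear of both. No pairwise comparison called Bmp2, but in both sexes together it was 0.58 higher in Cav1-KO than in Control in hypoxia (SE 0.165, adjusted p = 0.013) and -0.71 in Cav1-RC against Cav1-KO (SE 0.165, adjusted p = 0.0012), under the fold threshold. The latter passed the threshold with the list term, at -1.08 (SE 0.258, adjusted p = 0.012). Between hypoxia and normoxia in Cav1-KO mice Bmp2 differed by 0.67 (SE 0.177, adjusted p = 0.0031), and by 1.04 with the list term (SE 0.264, adjusted p = 0.049).

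Bmp4 (chromosome 14, 46383520 to 46390669, minus strand), a ligand needed for lung branching and alveolar growth, was lowest in the Cav1-RC groups. It had 63.7 and 76.8 CPM in normoxic Cav1-RC females and 59.1 to 80.7 in males, against 89.7 to 127.9 in the 6 normoxic Control libraries, with no overlap. In hypoxia the 6 Cav1-RC libraries had 49.2 to 90.9 CPM and the 6 Control libraries 84.0 to 107.8. The log2 difference in both sexes together was -0.52 in normoxia (SE 0.134, adjusted p = 0.019) and -0.45 in hypoxia (SE 0.126, adjusted p = 0.019), under the fold threshold in each. With the list term these were -0.54 (SE 0.122, adjusted p = 0.0040) and -0.23 (SE 0.149, adjusted p = 0.36). Between hypoxia and normoxia Bmp4 differed by -0.11 in Control, -0.05 in knockout and -0.04 in Cav1-RC mice (SE 0.125, 0.133 and 0.133). The antisense gene Gm15222, with up to 488 counts, overlaps Bmp4 by 1764 bases, so the Bmp4 counts are uncertain to that extent if strand was not used.

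Bmp3 (chromosome 5, 98854415 to 98884396, plus strand), an atypical member that opposes the signal of other BMPs, ranged from 42.2 to 112.3 CPM and was highest in hypoxic Control females (87.3, 110.8 and 112.3). It was -0.60 in Cav1-KO against Control in hypoxia in both sexes together (SE 0.135, adjusted p = 0.0030) and 0.53 higher in Cav1-RC than in Cav1-KO males in hypoxia (SE 0.127, adjusted p = 0.0095). Neither reached the fold threshold. Bmp3 had 42.2 to 87.3 CPM in the listed and 54.9 to 112.3 in the unlisted libraries, and with the list term the second difference was -0.06 (SE 0.193, adjusted p = 0.90).

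Gdf2 encodes BMP9, a ligand made mainly in the liver that circulates and acts on endothelial cells through ALK1. It lies on the plus strand of chromosome 14 from 33941039 to 33947198. In these lungs no library had more than 31 counts of it. In hypoxia, Cav1-KO libraries had 0, 1 and 0 counts in females and 1, 0 and 0 in males, which is 2 counts in 6 libraries with each at or under the floor of 3. Control libraries had 3, 2 and 1 counts in females and 20, 0 and 15 in males, and Cav1-RC libraries 7, 7 and 31 in females and 3, 13 and 15 in males. All 6 Cav1-RC libraries were above all 6 Cav1-KO libraries in CPM, while the Control values reached both, with 35 of their 41 counts in 2 male libraries. The 0 in Control males is the library whose Xist goes against its label. In normoxia the sums were 11 counts in 6 Control libraries, 6 counts in 5 of Cav1-KO and 28 counts in 5 of Cav1-RC mice.

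Scaled for depth, the summed hypoxic Gdf2 counts of Cav1-RC were 48.7 times those of Cav1-KO (95% interval 13.0 to 409), those of Control were 20.4 times those of Cav1-KO (5.30 to 174, and 36.8 without the libraries against the labelled sex, 6.24 to 1490), and those of Cav1-RC were 2.39 times those of Control (1.61 to 3.58). These exact conditional intervals cover counting error only, not the spread between mice. In both sexes together edgeR gave 5.05 on the log2 scale for Cav1-RC against Cav1-KO (SE 0.794, adjusted p = 3.2e-05) and -3.35 for Cav1-KO against Control (SE 0.919, adjusted p = 0.011), values that depend on the prior count at such low counts. The third difference, 1.70 for Cav1-RC against Control (SE 0.574, adjusted p = 0.049), was kept in 9 of 34 fits without 1 library and lost without the 4 libraries against the labelled sex (1.47, adjusted p = 0.11). With the list term, Cav1-RC against Cav1-KO was 5.59 (SE 1.47, adjusted p = 0.020), Cav1-KO against Control -3.51 (SE 0.992, adjusted p = 0.017) and Cav1-RC against Control 2.09 (SE 0.983, adjusted p = 0.20). Of 8 hepatocyte markers 4 passed the filter, their summed level was 0.944 to 3.64 CPM in listed and 1.73 to 6.48 CPM in unlisted libraries, and Alb and Apoa1 were at 0 to 2.96 and 0 to 0.373 CPM in all 34 libraries. In hypoxia, Alb was at 0.230 to 0.360 CPM in female and 0 to 0.262 CPM in male Cav1-KO mice, and at 0.872 to 1.19 CPM in female and 0.495 to 0.652 CPM in male Cav1-RC mice, so that these groups did not overlap in either sex. The summed hepatocyte markers were at 2.30 to 3.64 and 1.27 to 1.78 CPM in these female and male Cav1-KO mice and at 2.79 to 4.94 and 2.10 to 5.41 CPM in the Cav1-RC mice. Between these hypoxic genotypes, with females and males fitted together, 15.3% of all genes were called. Alb was the 1 of 4 markers tested that was called, higher in Cav1-RC, with a list median of 0.89 beside -0.0048 over all genes. These Cav1-KO mice are all listed and these Cav1-RC mice all unlisted. Alb was at 0 to 0.483 CPM in the listed libraries of every genotype and at 0 to 2.96 CPM in the unlisted. The part of these markers in the Gdf2 values was not tested.

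**Figure D4:**
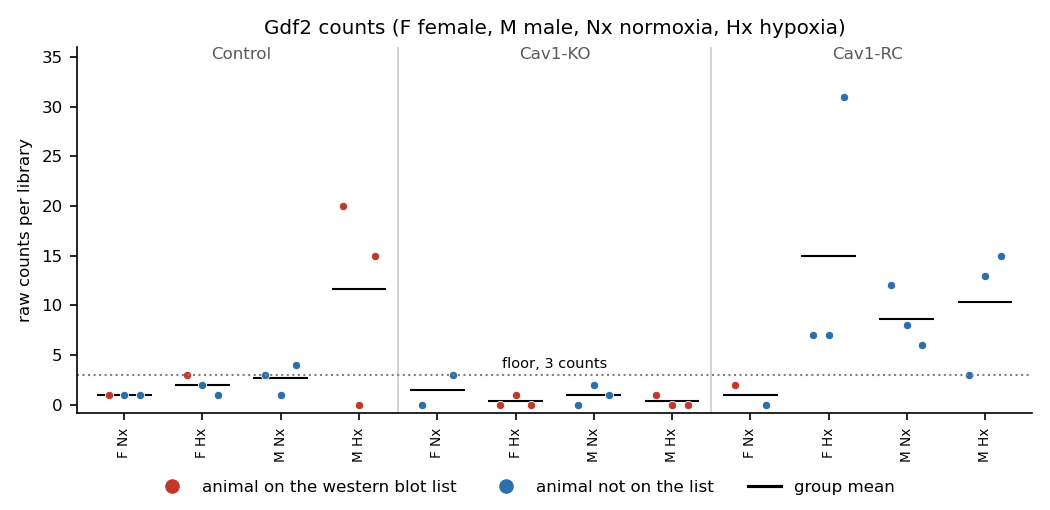
Counts of Gdf2 (linear axis) in each of the 34 libraries by group, with the floor of 3 counts drawn as a line. The 6 hypoxic Cav1-KO libraries hold 0 or 1 count and the 6 hypoxic Cav1-RC libraries 3 to 31.

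Among the antagonists, Nog (noggin, which binds BMP2 and BMP4 with high affinity) was low, and its hypoxic Cav1-RC and Cav1-KO libraries did not overlap. It (ENSMUSG00000048616) lies on the minus strand of chromosome 11 from 89300638 to 89302332. In hypoxic Cav1-RC mice it had 5, 4 and 2 counts in females and 2, 3 and 6 in males, which is 0.368, 0.250 and 0.0872 CPM and 0.124, 0.192 and 0.391 CPM. In hypoxic Cav1-KO mice it had 10, 24 and 32 counts in females and 27, 10 and 25 in males, which is 0.574, 1.004 and 1.44 CPM and 1.04, 0.637 and 1.09 CPM. All 6 Cav1-RC libraries were below all 6 Cav1-KO libraries. Nog was lower in Cav1-RC than in Cav1-KO in hypoxic females, with a log2 fold change of -2.18 (SE 0.623, adjusted p = 0.040), and in hypoxic males, with -1.98 (SE 0.503, adjusted p = 0.012).

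The female Nog call was kept in 1 of 6 fits without 1 library. It was lost without female Cav1-KO hypoxia replicate 2, the library flagged by Y genes alone (adjusted p = 0.11). The male call was kept in 4 of 6, being lost without male Cav1-RC hypoxia replicate 1 or 2. Both sexes together gave -2.07 (SE 0.435, adjusted p = 0.00050), and -1.93 for Cav1-RC against Control in hypoxia (SE 0.440, adjusted p = 0.0052). Control mice in hypoxia had 1.20, 0.775 and 0.620 CPM in females and 0.282, 1.69 and 0.724 in males, the first of these males within the Cav1-RC range. With the list term the differences were -1.54 (SE 0.671, adjusted p = 0.16) and -1.54 (SE 0.562, adjusted p = 0.092).

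Nog rose with hypoxia in both sexes together in Control mice, by 1.67 (SE 0.420, adjusted p = 0.016), and in Cav1-KO mice, by 1.28 (SE 0.440, adjusted p = 0.019). The first call was lost without the 4 libraries against the labelled sex (1.26, adjusted p = 0.096) and without 1 of them alone, male Control hypoxia replicate 2, whose Xist goes against its label and whose 1.69 CPM is the highest of all 34, and the second without female Cav1-KO normoxia replicate 1. With the list term they were 1.40 (SE 0.487, adjusted p = 0.045) and 0.74 (SE 0.668, adjusted p = 0.65). In Cav1-RC mice the difference was -0.75 (SE 0.491, adjusted p = 0.52). Normoxic levels were 0.0546 to 0.472 CPM in Control, 0.277 to 0.622 in knockout and 0.238 to 0.5002 in Cav1-RC libraries.

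Chrdl1 (chordin-like 1, a secreted BMP4 antagonist) differed by genotype in hypoxia. It (ENSMUSG00000031283) lies on the minus strand of chromosome X from 143285674 to 143394262. In hypoxia it had 28.6, 46.9 and 49.75 CPM in Control females, 16.4, 11.7 and 9.71 in Cav1-KO females and 21.0, 15.5 and 21.4 in Cav1-RC females. All 3 Control females stood above all 6 females of the other genotypes. In hypoxic males it had 16.2, 25.7 and 17.0 CPM in Control, 11.0, 10.2 and 11.0 in knockout and 16.6, 14.9 and 16.4 in Cav1-RC mice. The male Cav1-KO libraries lay below the others, and Control and Cav1-RC males overlapped. In both sexes together Chrdl1 was 0.59 higher in hypoxic Cav1-RC than in hypoxic Cav1-KO mice (SE 0.204, adjusted p = 0.019), under the fold threshold. List status and genotype cannot be told apart in that comparison. With the list term the difference was -0.38 (SE 0.2265, adjusted p = 0.33).

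In hypoxic females Chrdl1 was lower in Cav1-KO than in Control, with a log2 fold change of -1.74 (SE 0.284, adjusted p = 0.049), a call kept in 1 of 6 fits without 1 library. The call was lost without female Cav1-KO hypoxia replicate 2, the library flagged by Y genes alone (adjusted p = 0.24). In the same comparison the 11 fibroblast markers, none of them called by edgeR, had a median of -0.44 on the log2 scale beside 0.02 over all genes, and their summed level was 2621 to 4245 CPM in Control and 1928 to 2305 CPM in Cav1-KO females, with no overlap. Their part in the Chrdl1 values was not tested. Both sexes together gave -1.32 (SE 0.205, adjusted p = 9.3e-05), and -0.97 with the list term (SE 0.1498, adjusted p = 0.00011), just under the fold threshold. Among unlisted mice alone, Chrdl1 was 1.08 higher in hypoxia than in normoxia in Control females, 2 against 2 (SE 0.147, adjusted p = 0.0071). It was also lower in hypoxic Cav1-RC than in hypoxic Control females, 3 against 2, with -1.30 (SE 0.178, adjusted p = 0.019). In these 2 comparisons 8.47% and 1.29% of all genes were called.

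Keeping mice of 1 list status changed the libraries of 7 comparisons, in which 3 member calls (Chrdl1 in 2 comparisons and Bmp6 in 1) then stood in place of 1, and 2.04% of all gene tests were called. In 4 of the 7 an arm held 1 mouse, which is assumed to vary like the other arm. That was so for Chrdl1 in hypoxic Cav1-KO against Control females, whose difference was -1.17 with 3 against 1 listed mice (SE 0.270, adjusted p = 0.28). The third call was Bmp6 in Control females, which fell by 1.09 in hypoxia among 2 against 2 unlisted mice (SE 0.163, adjusted p = 0.0091). In both sexes together with the list term, Chrdl1 was 1.08 higher in hypoxia in Control mice (SE 0.164, adjusted p = 0.00011) and was -1.35 in Cav1-RC against Control in hypoxia (SE 0.182, adjusted p = 6.8e-05). Without the term neither was called, at 0.61 (SE 0.202, adjusted p = 0.072) and -0.72 (SE 0.203, adjusted p = 0.021). That fit called 1 member for Cav1-KO against Control in hypoxia (3.65% of all genes), 2 for Cav1-RC against Cav1-KO (3.45%), 1 for Cav1-RC against Control (2.78%), 2 for hypoxia in Control (4.84%) and 1 for hypoxia in Cav1-KO mice (0.695%). For Bmp6 in Cav1-RC mice it gave -0.72 for hypoxia (SE 0.151, adjusted p = 0.0050).

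Grem1 (gremlin 1, an antagonist of BMP2, BMP4 and BMP7, on the minus strand of chromosome 2 from 113746164 to 113758646) was the only member called between genotypes in normoxia. It had 0.917, 0.651 and 0.536 CPM in normoxic Cav1-RC males, 2.05, 2.32 and 3.07 in Cav1-KO males and 3.34, 2.46 and 1.98 in Control males. All 3 Cav1-RC libraries were below the other 6, at 9 to 22 counts against 33 to 72. Grem1 was lower in Cav1-RC males than in Cav1-KO males, with -1.79 (SE 0.294, adjusted p = 0.0030), and than in Control males, with -1.86 (SE 0.324, adjusted p = 0.020). The first call was kept in all 6 fits without 1 library and the second in 2 of 6, being lost without male Control normoxia replicate 2 or any of the 3 Cav1-RC males. The second was lost without the libraries against the labelled sex, 2 of the 3 Cav1-RC males (adjusted p = 0.41). In the fit over 34 libraries neither was called, with adjusted p of 0.083 and 0.057. With the list term the difference from Cav1-KO was -1.82 (SE 0.516, adjusted p = 0.054), not called. The difference from Control was then called, at -1.85 (SE 0.512, adjusted p = 0.033). The summed fibroblast markers were at 2492 to 3454 CPM in normoxic Cav1-RC males, below the 3977 to 4371 CPM of Cav1-KO males and overlapping the 2297 to 2865 CPM of Control males. For Cav1-RC against Cav1-KO in these males, 0 of 11 of them were called, with a median of -0.33 beside -0.00029 over all genes, and against Control the median was 0.12. Their part in the Grem1 values was not tested. In normoxic females, 2.22 and 0.769 CPM in Cav1-RC stood against 2.38 and 1.24 in Cav1-KO, a difference of -0.29 (SE 0.649, adjusted p = 0.89). The 2.22 came from the listed mouse, and without it the difference was -1.25, with 1 Cav1-RC mouse left. In both sexes together hypoxia moved Grem1 by 0.09 in Control, -0.21 in knockout and -0.05 in Cav1-RC mice (SE 0.355, 0.372 and 0.406).

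Bmper (chromosome 9, 23223076 to 23485200, plus strand), whose product binds BMPs and can enhance or block their signal depending on dose, ranged from 12.7 to 44.4 CPM. In Cav1-KO males it had 34.2, 31.3 and 26.8 CPM in normoxia and 16.1, 16.2 and 12.7 in hypoxia, without overlap. It fell by 1.06 (SE 0.136, adjusted p = 0.00031), a call lost without male Cav1-KO normoxia replicate 1 or hypoxia replicate 3. Of 11 fibroblast markers 7 were called lower in the same comparison (list median -1.33, 0.01 over all genes), with a summed level of 3977 to 4371 CPM in normoxia and 1266 to 1929 CPM in hypoxia and neither Col1a1 nor Col1a2 at 0. The part of fibroblasts in the Bmper values was not tested. In Cav1-KO females, 23.8 and 33.6 CPM in normoxia stood against 16.8, 17.0 and 13.6 in hypoxia, a difference of -0.88 (SE 0.176, adjusted p = 0.0086). Both comparisons set unlisted against listed mice, and the listed libraries had 12.7 to 22.2 CPM of Bmper against 16.8 to 44.4 in the unlisted. With the list term the male difference was -0.10 (SE 0.2995, adjusted p = 0.93). For Cav1-KO against Control in hypoxia Bmper was -0.64 in both sexes together (SE 0.213, adjusted p = 0.032), and -0.29 with the list term (SE 0.171, adjusted p = 0.25).

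The difference between the sexes was tested for each of the 9 comparisons of both sexes. No member was called in any by edgeR, where 0.0643% of all tests were called. 12 of the 90 member tests had an unadjusted p under 0.05, and DESeq2 called 2. Over all genes, 592 to 6263 of 19870 per comparison had such a p, and DESeq2 called 2 to 1513. The members with such a p were 4, 3 and 3 of 10 for Cav1-RC against Control and Cav1-KO against Control in hypoxia and for hypoxia in Control mice. In these comparisons 4288, 3546 and 6263 of the 19870 genes had one. The smallest adjusted p of a member was 0.066, for Bmp5 in hypoxia against normoxia of Control mice (0.17 in females, -2.05 in males, female minus male 2.22, SE 0.720). In that comparison all 3 hypoxic males are listed and 1 of 3 hypoxic females is.

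Of 55 other BMP pathway genes, 48 were tested in the fit over 34 libraries. Their calls in both sexes together are given beside the share of all genes called. For Cav1-RC against Cav1-KO in hypoxia 8 were higher and 3 lower (15.3% of all genes called), with a list median of 0.27 on the log2 scale beside -0.0048 over all genes. Among them the target genes Id3 (-1.07, SE 0.204, adjusted p = 0.00020) and Hey1 (-1.02, SE 0.163, adjusted p = 3.7e-05) were lower. For hypoxia against normoxia in Cav1-KO mice 1 was higher and 6 lower (16.5% of all genes called, so that 7 of 48 lies near the background), with a median of -0.46 beside 0.03 over all genes. Twsg1 (twisted gastrulation, which modulates BMP binding) fell by 1.38 (SE 0.202, adjusted p = 2.0e-05) and the protease gene Tll1 by 2.05 (SE 0.337, adjusted p = 5.6e-05). The list term called Twsg1 and Tll1 lower as well.

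For Cav1-KO against Control, 0 of the 48 were called in normoxia (5.70% of all genes) and 3 were lower in hypoxia (5.36%), which were Sost (sclerostin, an antagonist), the ligand gene Gdf6 and Vwc2. Sost was at -4.34 (SE 0.643, adjusted p = 5.2e-05), a fitted value of a gene with few counts, and Gdf6 fell by 1.495 (SE 0.365, adjusted p = 0.0054) and Vwc2 by 1.20 (SE 0.367, adjusted p = 0.021). For Cav1-RC against Cav1-KO in normoxia (3.26% of all genes) 1 was lower, Gdf10 (-1.23, SE 0.174, adjusted p = 3.8e-05), a ligand gene. For Cav1-RC against Control, 0 were called in normoxia (2.72%), and in hypoxia 1 was higher and 2 lower (5.20%). For hypoxia in Control mice 2 were higher and 2 lower (2.33%), among them Smad6, an inhibitory SMAD (-1.29, SE 0.218, adjusted p = 0.00040), and in Cav1-RC mice 0 were called (1.23%). The list term called 2 higher and 5 lower of 48, near the 13.5% of all genes.

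Across the 34 libraries, which share groups and list status, the genes most like each member were found among 19869 others by Pearson's r of log2 CPM. Bmp5 was most like Gm14066 (r = 0.97), Atp7a (0.97) and Vcl (0.97), and these were 0.96, 0.92 and 0.96 after the group means were subtracted. The subtraction does not take out list status within groups that hold both listed and unlisted mice. Bmp6 was most like Efnb2 (0.95, and 0.90 after subtraction), Bmper like Myo10 (0.93) and Ednra (0.93), and Chrdl1 like Mamdc2 (0.90) and Vegfd (0.90). The first gene was Pcca for Bmp3 (0.88), Mmrn1 for Bmp2 (0.85), Ighv1-82 for Gdf2 (0.85), Traip for Bmp4 (0.81) and Grem1 (0.68), and Kcnab3 for Nog (0.79). Between members, r was highest for Bmp3 with Chrdl1 (0.80) and Bmp5 with Bmper (0.79), and these were 0.59 and 0.73 after subtraction.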

How the data were processed

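Whole-lung RNA was purified by poly-A enrichment and built into directional libraries by dUTP. The authors mapped paired reads to mm10 with HISAT2 2.0.5 and counted with featureCounts 1.5.0-p3, both at default parameters per the study's methods and the submitters' processing notes. They deposited the raw count and the FPKM (fragments scaled to gene length and library size) of 54532 genes. No strand setting is given beyond these defaults, so counts are uncertain where genes overlap.

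Counts were scaled by TMM and tested with edgeR 4.0.16 in R 4.3.3 (filterByExpr, glmQLFit, glmQLFTest), which kept 16981 to 17853 genes in pairwise fits and 19870 in the fit of 12 group means over 34 libraries. The thresholds were an absolute log2 fold change above 1 and an adjusted p under 0.05. The code was tested on simulated data. Alternatives were DESeq2 1.42.0 (size factors or Wald test), limma 3.58.1 on log2(FPKM + 1) and log2(FPKM + 0.1), no low-count filter, no fold threshold, a replicate block, a term for the list of animals of the western blots, libraries of 1 list status, each library left out, and the 4 libraries against the labelled sex left out (Xist above 100 CPM in males or Y genes above 5% of the male mean in females).

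All 10 members were tested in the fit over 34 libraries and, where they passed the filter, in each pairwise comparison. Their calls are all reported, with values under the fold threshold for a part of the rest. Other pathway genes are named by the smallest adjusted p, up to 3 per list and comparison (1 gene that the rule names is not reported here), and for like genes the first 3 by r of log2 CPM with a prior count of 2 were taken. The members and lists were chosen with earlier results of these data known. Replicate numbers did not pair the mice: over 49 pairs of the same number, r of the deviations from the group means ran from -0.167 to 0.567, and in 0 of 18 comparisons were all 3 pairs over 0.1. Reads, hemodynamics, blots and qPCR were not analysed here.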

Additional observations from a re-analysis of the deposited data

Results flagged for a closer look

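Bmp2 stood at 26.8 CPM (762 counts) in the library whose identity the labels mark as uncertain, possibly a female Cav1-KO mouse in normoxia, and which no comparison used. The 2 libraries of female Cav1-KO normoxia had 12.57 and 8.65 CPM and the 12 Control libraries 6.28 to 13.5 CPM. The highest of the 34 grouped libraries was female Cav1-KO hypoxia replicate 3 at 21.0 CPM. It is a single library, and the difference was not tested.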

How the results depend on the processing

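With groups of 2 or 3 mice, calls near a threshold moved with single libraries, and Gdf2, Nog and Grem1 rest on few counts. The 2 member calls for Cav1-KO against Control became 4 with the Wald test of DESeq2, 5 without the low-count filter, 1 with limma at each FPKM setting, 4 without the fold threshold and 5 in the fit over 34 libraries, and 1 to 4 without 1 library (4 without female Control hypoxia replicate 1, 1 without any of the other 5 hypoxic libraries of those females). The 5 calls for Cav1-RC against Cav1-KO became 8 without the filter, 2 with limma on log2(FPKM + 1), 13 without the fold threshold and 2 with the list term, and 4 to 8 without 1 library (8 without female Cav1-RC normoxia replicate 2). The 2 calls for Cav1-RC against Control became 4 with the Wald test, 1 with limma on log2(FPKM + 1) and on log2(FPKM + 0.1) without a filter, 1 without the 4 libraries against the labelled sex, 4 without the fold threshold, and 4 in the fit over 34 libraries with or without the list term, and 1 to 3 without 1 library (1 without male Control normoxia replicate 2 or any male Cav1-RC normoxia library). The 6 calls for hypoxia became 14 without the fold threshold and 2 with the list term, and 5 to 8 without 1 library. Both sexes together, 12 calls became 4 with limma on log2(FPKM + 1), 7 with the list term and 28 without the fold threshold, and 10 to 13 without 1 library. The 0 calls for the difference between the sexes became 2 with the Wald test and 3 without the filter, and 0 to 6 without 1 library (6 without female Control hypoxia replicate 1, 3 without female Control normoxia replicate 3). With mice of 1 list status, 1 call became 3. Bmp5 turned its direction with the list term in 6 results: Cav1-RC against Cav1-KO in hypoxia at -0.83 in females, -0.32 in males and -0.58 in both (adjusted p = 0.21), Cav1-RC against Control in hypoxic males at -0.43 (adjusted p = 0.62), and hypoxia at 0.21 in Control males and 0.38 in Cav1-KO females. The replicate block, on numbers that do not pair the mice, left 1 call for Cav1-KO against Control, 4 for Cav1-RC against Cav1-KO, 2 for Cav1-RC against Control, 6 for hypoxia, 11 in both sexes and 1 for the sex difference. Of the 27 single calls, the size factors of DESeq2 kept 27, its Wald test 26, no filter 26, the block 24, limma on log2(FPKM + 0.1) 23, and 20 without its filter, leaving out the libraries against the labelled sex 22, and limma on log2(FPKM + 1) 13. The list term kept 3 of the 15 pairwise and 3 of the 12 both-sexes calls, and turned the sign of 5 and 1. Apart from the changes that fewer libraries, other filters or thresholds make by construction, the cause was not tested.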

Other observations

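In the library of uncertain identity, whose animal is on the western blot list, the other members were within the range of the 34 grouped libraries. Bmp5 had 6.41 CPM, within the listed range of 4.50 to 12.96 CPM. Bmp6 had 135.7 CPM, Bmp4 81.1, Bmp3 61.9, Bmper 16.6 and Chrdl1 16.1 CPM. The low genes were Grem1 at 1.97 CPM, Nog at 0.493 CPM (14 counts) and Gdf2 at 2 counts, under the floor of 3.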
